A study of Mus musculus with 12 samples.

Results

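CC chemokines are small secreted proteins, named for a pair of adjacent cysteines, and the 10 genes described here are Ccl2, Ccl3, Ccl4, Ccl5, Ccl6, Ccl7, Ccl8, Ccl9, Ccl11 and Ccl21a of the mouse. They were taken by exact gene symbol from the libraries labelled soleus, and are 10 of the 21936 genes listed there. They were chosen by their measured TPM in the knockout comparison of these same libraries, so their values in it are a description and carry no test. The study compared skeletal muscle of C57BL/6N mice at 3 months of age that were wild type, labelled normal, with muscle of mice lacking PTRF, labelled PTRF knockout and muscular dystrophy. PTRF, also called cavin 1, coats the membrane pits known as caveolae, and its loss causes muscular dystrophy with lipodystrophy. No treatment or further allele is named for either group, and the labels do not say in which cells the gene was deleted. The 12 samples carry soleus and quadriceps labels, but each quadriceps sample repeats the values of the soleus sample of its genotype and number, with a largest difference of 0 TPM. They were therefore counted as 6 libraries, 3 wild type and 3 knockout, of which the muscle is not known.

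Chemokines bind receptors with 7 membrane spans that couple to inhibitory G proteins, and cells that carry the receptor move towards the source. In skeletal muscle, Ccl2 and its relatives draw Ccr2-positive monocytes out of the blood after injury and in dystrophy. Ccl11 acts on Ccr3 of eosinophils, Ccl3, Ccl4 and Ccl5 attract several kinds of leukocyte, and Ccl6 and Ccl9 act on Ccr1. Ccl8 of the mouse acts on Ccr8. Ccl21, made by lymphatic endothelium and lymph node stroma, guides Ccr7-positive dendritic cells and T cells into lymph vessels.

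Of the 10 genes, 9 lie on chromosome 11 in 2 groups, and Ccl21a lies on chromosome 4 (all positions in GRCm38, GENCODE release 21). Ccl2 (82035571 to 82037453), Ccl7 (82045712 to 82047525), Ccl11 (82057823 to 82062955) and Ccl8 (82115185 to 82116799) lie on the plus strand within 81.2 kb, and Ccl12, a CC chemokine outside the 10, lies between Ccl11 and Ccl8. Ccl5 (83525778 to 83530518), Ccl9 (83572919 to 83578636), Ccl6 (83587882 to 83593087) and Ccl3 (83647844 to 83649355), all on the minus strand, and Ccl4 (83662584 to 83664683), on the plus strand, lie within 138.9 kb of each other. The groups are 1409.0 kb apart. Ccl21a spans 42772860 to 42773993 on the minus strand of chromosome 4. Ccl2, Ccl6 and Ccl21a each overlap a gene on the opposite strand (Gm17268, E230016K23Rik and 4930578G10Rik). Whether reads were counted by strand is not given in the sources used here, so reads of these partners cannot be told apart.

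The RefSeq table of start regions (GRCm38.p6, 250 bases before to 50 after a start) held 5 of the 10 genes, Ccl3, Ccl6, Ccl8, Ccl9 and Ccl21a. Those of Ccl8 and Ccl21a are shown first, because these genes had the largest differences between the groups. Capitals mark matches to TATAAA, the core of the TATA box, and GAGGAA, a core recognised by the myeloid and lymphoid factor PU.1, or to the complement of either.
Ccl8, chr11:82114935-82115234, plus strand: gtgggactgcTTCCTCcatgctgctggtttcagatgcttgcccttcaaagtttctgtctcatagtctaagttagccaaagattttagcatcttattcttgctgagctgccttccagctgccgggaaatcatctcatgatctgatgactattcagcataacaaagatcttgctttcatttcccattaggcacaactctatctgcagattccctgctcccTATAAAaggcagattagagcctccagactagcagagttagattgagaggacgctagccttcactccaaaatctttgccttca
Ccl21a, chr4:42773942-42774241, minus strand: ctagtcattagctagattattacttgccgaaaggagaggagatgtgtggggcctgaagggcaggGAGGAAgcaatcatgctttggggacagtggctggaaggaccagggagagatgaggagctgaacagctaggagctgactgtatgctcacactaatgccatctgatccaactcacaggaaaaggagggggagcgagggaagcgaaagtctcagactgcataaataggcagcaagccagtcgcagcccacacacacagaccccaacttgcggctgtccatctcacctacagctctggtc
TATAAA began 32 bases before the Ccl8 start. TATAAA occurred in 13.6% and GAGGAA in 28.3% of the 32851 start regions of this length in the table, on either strand, and in 2 and 3 of the 5 regions of these genes. The interferon response element (3.44% of all regions) matched none of the 5. The AP-1 site (TGANTCA, 7.81%), the C/EBP site (TTGCNNAA, 10.8%) and the NF-kB site (4.51%) each matched 1 of the 5, Ccl9, Ccl21a and Ccl9 in that order. These are matches of letters and not measured binding.

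Ccl6 and Ccl9 are neighbours that encode closely related ligands of Ccr1, and their start regions share sequence. Capitals mark runs of at least 10 bases found in both.
Ccl6, chr11:83593038-83593337, minus strand: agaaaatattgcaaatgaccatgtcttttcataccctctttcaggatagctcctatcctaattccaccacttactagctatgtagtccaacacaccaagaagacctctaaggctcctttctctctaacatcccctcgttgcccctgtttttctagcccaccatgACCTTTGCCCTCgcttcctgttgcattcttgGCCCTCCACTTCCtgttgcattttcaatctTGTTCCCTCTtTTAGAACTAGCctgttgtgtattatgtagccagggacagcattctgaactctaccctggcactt
Ccl9, chr11:83578587-83578886, minus strand: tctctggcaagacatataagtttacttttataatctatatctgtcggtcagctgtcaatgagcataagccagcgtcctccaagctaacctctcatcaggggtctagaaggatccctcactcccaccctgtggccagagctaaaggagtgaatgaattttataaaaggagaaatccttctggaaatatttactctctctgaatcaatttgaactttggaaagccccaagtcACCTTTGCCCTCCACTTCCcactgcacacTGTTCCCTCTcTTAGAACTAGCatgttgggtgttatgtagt
The longest run, 19 bases of Ccl9, is met in Ccl6 by 2 separate runs of 12 and 13 bases. The runs covered 46 bases of the Ccl6 region and 40 bases of the Ccl9 region.

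Values are TPM, a scaled share of all transcripts in a library, corrected for transcript length, so levels of different genes can be set side by side. The libraries summed to 843194 to 872482 TPM, and the read depth behind them is unknown. Where 3 values of a group are given, they are in the order of library numbers 1, 2 and 3. Cavin1, the deleted gene, was at 45.2, 40.0 and 42.2 TPM in wild type and at 0.284, 0.0905 and 0.0254 TPM in knockout. The muscle markers of the libraries, among them Acta1, Tnnt3 and Ckm, summed to 32437 to 35407 TPM in wild type and 36709 to 45009 TPM in knockout, and the slow-fibre myosin Myh7 was at 1702 TPM or more in all 6. The fast-fibre myosin Myh4 set wild-type library 2, at 194 TPM, apart from wild-type libraries 1 and 3, at 6.43 and 4.21 TPM, while the knockout libraries were at 238, 580 and 346 TPM. In this gene wild-type library 2 thus lay nearer to the knockout libraries than to the rest of its group. Neutrophil genes set knockout library 1 apart: S100a9 was at 22.7 TPM there and at 2.48 and 4.02 TPM in the other knockout libraries. Counts of calls with both of these libraries left out are given beside the list counts. The labels do not say that samples of a number came from separate animals, so p-values measure only how these samples vary, which can be technical.

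All 10 CC chemokine genes were higher in every knockout library than in every wild-type library, where the same held for 38.1% of the 18254 genes above 0 in any library and for 48.7% of the 11056 at 1 TPM or more in at least 3 libraries. The choice of the genes used this contrast, so nothing is read from the count. Their summed level was 20.9, 21.7 and 26.3 TPM in wild type and 129.5, 110.0 and 110.2 TPM in knockout, or 22.98 ± 2.91 against 116.5 ± 11.2 TPM (SD, n = 3 each), a ratio of 5.07. Without Ccl21a the sums were 16.96 ± 3.45 and 69.9 ± 13.1 TPM, a ratio of 4.12. In wild type, 6 of the 10 had a mean below 1 TPM: Ccl2, Ccl3, Ccl4, Ccl5, Ccl7 and Ccl8. All of these but Ccl2 were below 1 TPM in each wild-type library. Nearest to that level were Ccl2 below it, at a mean of 0.457 TPM, and Ccl9 above it, at 2.19 TPM. In knockout, Ccl3, Ccl4 and Ccl5 kept a mean below 1 TPM. The number of the 10 genes at 1 TPM or more was 4 in each wild-type library and 7, 8 and 7 in knockout libraries 1, 2 and 3.

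**Figure D1:**
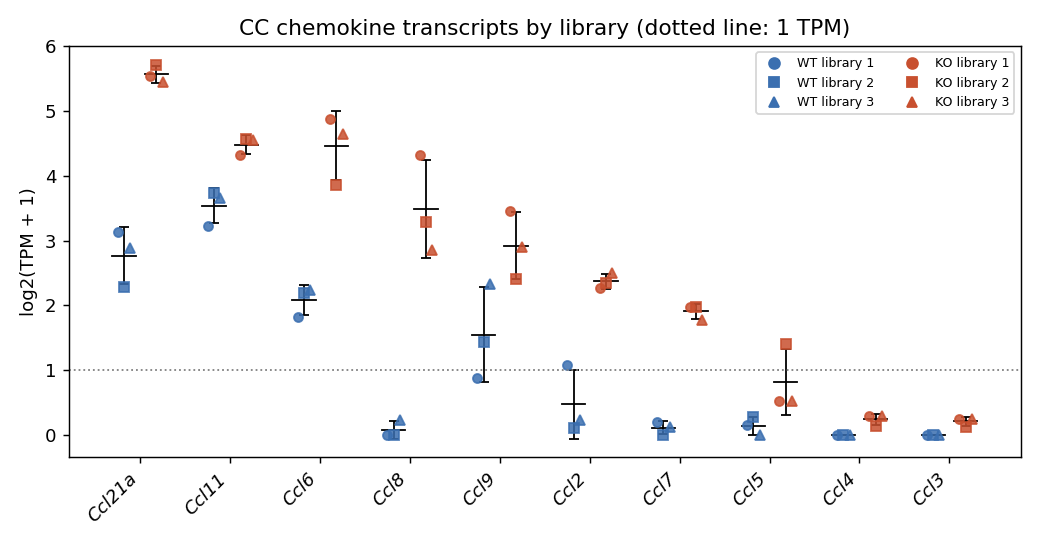
Level of each CC chemokine gene, as log2(TPM + 1), in 3 wild-type (blue) and 3 knockout (red) libraries; symbols give the library number, horizontal bars the mean and whiskers the SD. Every knockout point lies above every wild-type point of its gene, and 6 genes have a wild-type mean below 1 TPM (dotted line).

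Ligands of Ccr2 and their neighbours come first. Ccl2, the main chemoattractant of inflammatory monocytes, was at 1.12, 0.0774 and 0.174 TPM in wild type and at 3.81, 4.08 and 4.66 TPM in knockout. The knockout libraries lay close together, while wild-type library 1 alone carried most of the wild-type mean of 0.457 ± 0.577 TPM, which was 0.126 TPM without it. The knockout mean was 4.19 ± 0.432 TPM (SD, n = 3 each). Ccl7, a second Ccr2 ligand, was at 0.151, 0 and 0.0894 TPM in wild type and at 2.95, 2.93 and 2.43 TPM in knockout. It was therefore near 0 in every wild-type library and between 2 and 3 TPM in every knockout library, with a difference of 1.80 in mean log2(TPM + 1).

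Ccl8 went from near the bottom of the wild-type list to the upper part of the knockout list. Its wild-type values were 0, 0 and 0.177 TPM, and its knockout values 19.0, 8.78 and 6.24 TPM. Its difference of 3.41 in mean log2(TPM + 1) was the largest of the 10 genes. Its knockout libraries also spread widely, with the highest 3.05 times the lowest, and the knockout mean of 11.3 ± 6.77 TPM (SD, n = 3) was 7.51 TPM without library 1. No ratio of levels is given for it, since 2 of the 3 wild-type libraries list it at 0.

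Ccl11, eotaxin, was the most abundant of the 10 in wild type and had the smallest ratio between the groups of those at 1 TPM or more there. It was at 8.40, 12.3 and 11.7 TPM in wild type and at 18.9, 22.7 and 22.6 TPM in knockout. The means of 10.8 ± 2.09 and 21.4 ± 2.16 TPM (SD, n = 3 each) stood in a ratio of 1.98. Its difference in mean log2(TPM + 1) was 0.94 as deposited and 0.57 once libraries were rescaled by a trimmed mean, where the median gene differs by -0.01. Ccl2, Ccl7, Ccl8 and Ccl11 together went from a summed level of 11.4 ± 1.49 to 39.7 ± 4.51 TPM (SD, n = 3 each).

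In the second chromosome 11 group, Ccl6, a myeloid ligand of Ccr1 in rodents, was the most abundant gene. It was at 2.53, 3.59 and 3.70 TPM in wild type and at 28.5, 13.6 and 23.9 TPM in knockout. The lowest knockout library was thus well above the highest wild-type library, although the knockout libraries differed among themselves by a factor of 2.11. The means were 3.27 ± 0.641 and 22.0 ± 7.68 TPM (SD, n = 3 each), a ratio of 6.73.

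Ccl9, whose start region shares sequence with that of Ccl6, was at 0.842, 1.70 and 4.04 TPM in wild type and at 9.97, 4.31 and 6.51 TPM in knockout. Here the groups came closest to each other, 4.04 TPM in wild-type library 3 against 4.31 TPM in knockout library 2. The ratio of the means, 2.19 ± 1.65 and 6.93 ± 2.85 TPM (SD, n = 3 each), was 3.16, and the wild-type mean was 1.27 TPM without library 3. Ccl6 and Ccl9 had the same order of knockout libraries, with library 1 highest and library 2 lowest.

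Ccl3, Ccl4 and Ccl5, products of activated leukocytes, were low in both groups. Ccl3 was listed at 0 in the wild-type libraries and was at 0.190, 0.0893 and 0.187 TPM in the knockout libraries. Its neighbour Ccl4 was likewise at 0 in wild type and was at 0.228, 0.105 and 0.223 TPM in knockout, the same order as Ccl3. Ccl5, a product of activated T cells and other leukocytes, was at 0.113, 0.206 and 0 TPM in wild type and at 0.444, 1.65 and 0.437 TPM in knockout, where library 2 alone passed 1 TPM. Its knockout mean of 0.843 ± 0.698 TPM (SD, n = 3) was 0.440 TPM without that library. Summed with Ccl6 and Ccl9, these genes went from 5.57 ± 2.12 to 30.1 ± 9.88 TPM.

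Ccl21a was the most abundant of the 10 in knockout. It was at 7.75, 3.88 and 6.43 TPM in wild type and at 45.4, 51.7 and 42.9 TPM in knockout. The knockout libraries differed by a factor of 1.20 and lay far above the wild-type range. The means of 6.02 ± 1.97 and 46.7 ± 4.52 TPM (SD, n = 3 each) had a ratio of 7.75 and a difference of 2.80 in mean log2(TPM + 1).

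The mouse genome holds several near-identical Ccl21 genes, so the division of reads among them is uncertain. The coding sequences of Ccl21a and Ccl21d have 402 bases each and differ at 2 of them, T84A and C194T, with the Ccl21a base first and positions counted from 1 at the A of the start codon. Ccl21b (ENSMUSG00000095675) has the same 2 differences from Ccl21a. The sequence of the more abundant Ccl21b row (ENSMUSG00000096271) was not compared. The 60 bases around position 84 are shown in the sense of the transcript, with that position in a capital.
Ccl21a, bases 54 to 113: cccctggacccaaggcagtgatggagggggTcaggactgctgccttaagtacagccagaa
Ccl21d, bases 54 to 113: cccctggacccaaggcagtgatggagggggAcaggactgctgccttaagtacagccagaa
The whole transcripts of Ccl21a and Ccl21d, 870 bases each, differ at 6 positions. Of 7 rows with a Ccl21 symbol, 3 were listed at 0 in all 6 libraries, among them a second identifier for Ccl21a.

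The knockout libraries divided Ccl21 reads differently from one another. Ccl21b (ENSMUSG00000096271) was at 2.79, 1.74 and 1.52 TPM in wild type and at 11.5, 21.8 and 0.650 TPM in knockout, while Ccl21d was below 0.01 TPM in wild type and at 0.0118, 0.233 and 14.7 TPM in knockout. Knockout library 3 thus had its second-largest Ccl21 share in Ccl21d, and libraries 1 and 2 had theirs in Ccl21b. Summed over all rows, Ccl21 was at 10.6, 5.64 and 7.96 TPM in wild type and at 57.0, 74.5 and 58.3 TPM in knockout. The means, 8.05 ± 2.46 and 63.3 ± 9.73 TPM (SD, n = 3 each), had a ratio of 7.86, close to the 7.75 of Ccl21a alone. Ccl21a took 74.3 ± 6.00% of the sum in wild type and 74.2 ± 5.14% in knockout.

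**Figure D2:**
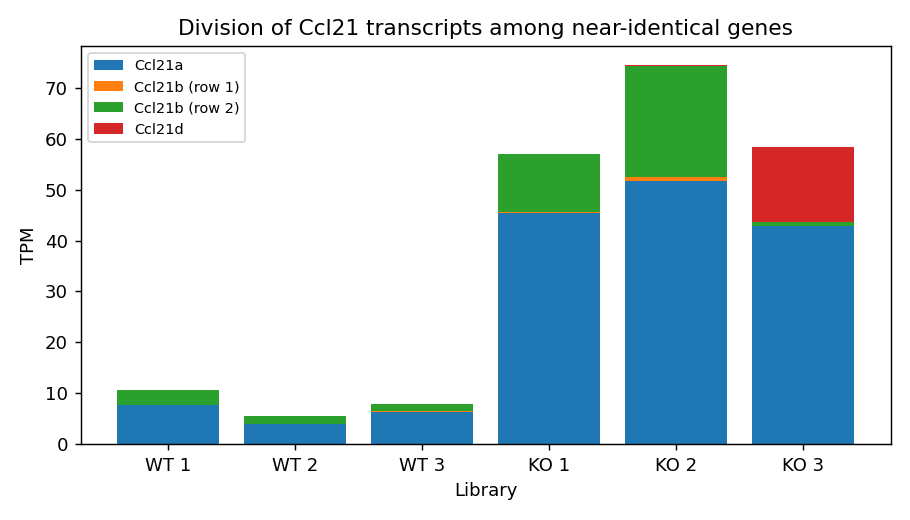
Level in TPM of each Ccl21 row above 0, stacked for each of the 6 libraries; Ccl21b rows 1 and 2 are ENSMUSG00000095675 and ENSMUSG00000096271. The Ccl21a segment is similar in the 3 knockout libraries (45.4, 51.7 and 42.9 TPM), while the rest falls to Ccl21b in libraries 1 and 2 and to Ccl21d in library 3.

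The order of the levels differed between the groups. In wild type, Ccl11 stood above Ccl21a and Ccl21a above Ccl6 with no overlap of their libraries, and from Ccl6 down (Ccl9, Ccl2, Ccl5, Ccl7, Ccl8, then Ccl3 and Ccl4 at 0) the ranges of neighbours overlapped. In knockout, Ccl21a stood above Ccl6 with no overlap, while neighbours overlapped along Ccl6, Ccl11, Ccl8, Ccl9 and Ccl2. Below these, Ccl2, Ccl7, Ccl5 and Ccl4 were separated from each other, and Ccl4 and Ccl3 overlapped. As shares of the 10-gene sum in TPM, Ccl11 took 47.0 ± 8.47% in wild type and 18.6 ± 3.45% in knockout, Ccl21a 26.5 ± 9.76% and 40.3 ± 6.10%, and Ccl8 0.225 ± 0.389% and 9.45 ± 4.68% (SD, n = 3 each). Among knockout libraries, library 1 held the highest value of 6 genes (Ccl3, Ccl4, Ccl6, Ccl7, Ccl8 and Ccl9), library 2 of 3 (Ccl5, Ccl11 and Ccl21a) and library 3 of Ccl2.

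**Figure D3:**
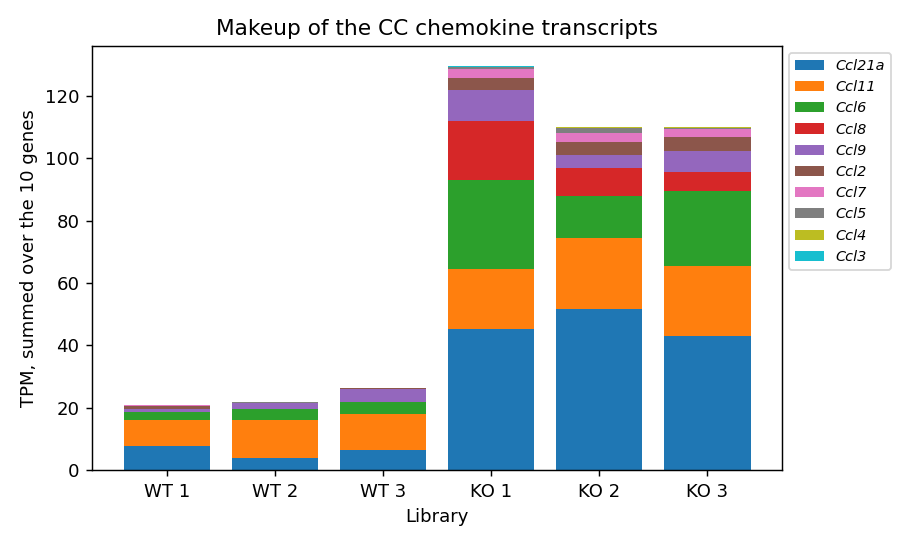
TPM of the 10 CC chemokine genes stacked for each library. The sum lies between 20.9 and 26.3 TPM in wild type, where Ccl11 and Ccl21a make up most of it, and between 110.0 and 129.5 TPM in knockout, where Ccl21a is the largest segment.

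Across all genes, limma on log2(TPM + 1) tested the 11056 genes at 1 TPM or more in at least 3 libraries and called 4339 of them at a Benjamini-Hochberg adjusted p of 0.05, which is 39.2%. Of these 4016 were higher in knockout, 36.3% of the genes tested, and 323 were lower, 2.92%. Of the 10 CC chemokine genes, 7 passed the filter on low values, Ccl2, Ccl7 and Ccl8 only through the knockout libraries. All 7 were among the genes called higher, from which nothing is read, because the genes were chosen on this contrast. The direction of calls over all genes depended on the scale: 92.56% of called genes were higher as deposited, 51.44% with trimmed-mean scaling and 48.64% after quantile normalization. The median difference in mean log2(TPM + 1) over all tested genes was 0.33, and it was -0.01 after trimmed-mean rescaling. Over the 10 CC chemokine genes, tested or not, it was 1.59, with a range of 0.21 (Ccl3) to 3.41 (Ccl8). Genes called higher were 14.2% of those tested after trimmed-mean rescaling and 12.4% after quantile normalization.

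**Figure D4:**
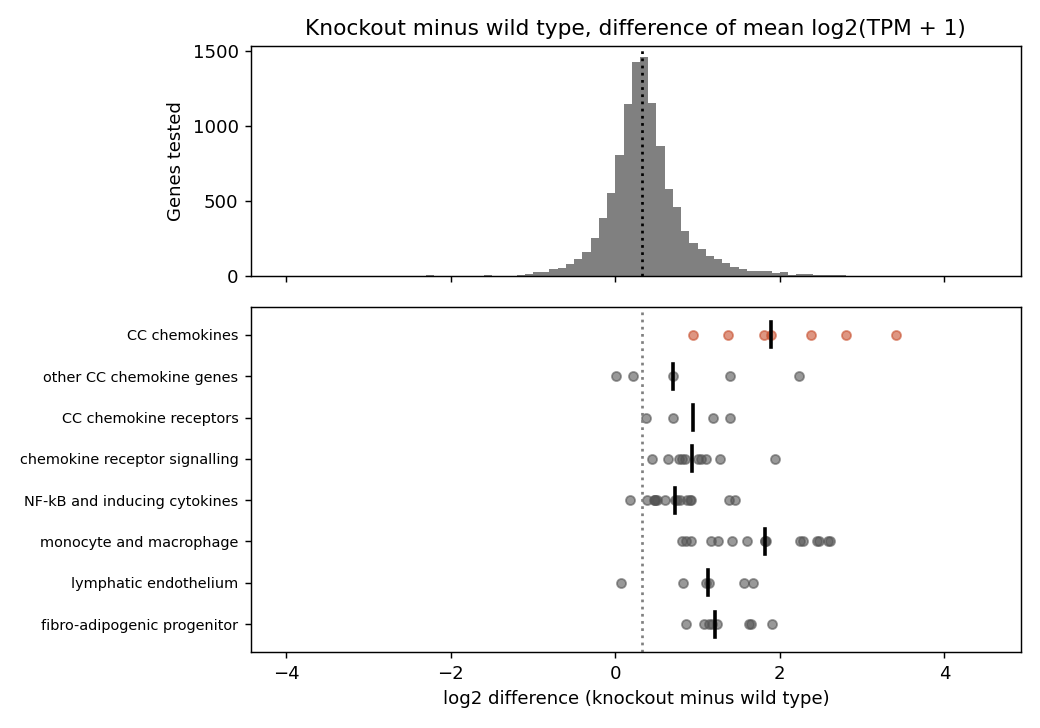
Top, number of tested genes by the difference of mean log2(TPM + 1), knockout minus wild type; below, the difference of each tested gene of 8 lists, with a bar at the list median and a dotted line at the median of all tested genes (0.33). The 7 tested CC chemokine genes lie between 0.94 and 3.41, all to the right of that line.

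Other genes of the system were taken from lists of known members. The counts of calls below stand beside the 36.3% of all tested genes called higher as deposited. Where wild-type library 2 and knockout library 1 were both left out, 1673 of the 10453 genes tested were called higher. Counts without both libraries stand beside that share instead. Genes with a wild-type mean below 1 TPM passed the filter through the knockout libraries, where they are high, so their calls are given without a p. Of 15 CC and atypical chemokine receptor genes, 4 passed the filter, 1 of them (Ccr2) in that way, and 3 were called higher in knockout by limma, Ccr2, Ackr1 and Ackr3. With wild-type library 2 and knockout library 1 left out, 2 of 3 tested were called. Ccr2, the receptor of Ccl2, Ccl7 and Ccl12, was at 0.695, 0.485 and 0.679 TPM in wild type and at 2.47, 4.40 and 1.69 TPM in knockout. Its log2(TPM + 1) difference was 1.19, and its knockout libraries ranked in another order than those of Ccl2. Ackr1, which carries chemokines across venular endothelium, rose from 1.39, 1.70 and 1.21 TPM to 5.84, 4.91 and 5.39 TPM (limma adjusted p = 2.92e-05). The scavenging receptor Ackr3 was at 4.39, 5.96 and 6.52 TPM in wild type and at 9.83, 9.37 and 9.92 TPM in knockout (limma adjusted p = 0.00489), and its call was lost after both rescalings, with adjusted p from 0.00414 to 0.108 over the alternatives. Ccrl2, a receptor that does not signal to migration, was at 1.98, 2.26 and 1.66 TPM in wild type and at 3.07, 3.24 and 2.27 TPM in knockout, and was not called (limma adjusted p = 0.0665).

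The remaining receptors were below 1 TPM in every wild-type library, as was Ccr2. Ccr1, the receptor of Ccl3, Ccl5, Ccl6 and Ccl9, was at 0.0770, 0 and 0.0827 TPM in wild type and at 0.572, 0.500 and 0.841 TPM in knockout. It fell below the filter, as did the scavenger Ackr4, which binds Ccl21, at 0.233 to 0.412 TPM in wild type and 0.558 to 1.20 TPM in knockout. With no filter on low values, 7 of 13 receptor genes were called higher, with Ccr1, Ccr10 and Ackr4 among those added, against 19.8% of all 18254 genes then tested. Ccr3, the receptor of Ccl11, and Ccr8, the receptor of Ccl8, were listed at 0 in all 6 libraries. Ccr7, the receptor of Ccl21, was listed at 0 in wild type and was at 0.0523, 0.0502 and 0 TPM in knockout. Ackr2, which degrades inflammatory CC chemokines, was at 0.389 to 0.552 TPM in wild type and 0.531 to 0.903 TPM in knockout, so the groups overlapped. Ccr9 (highest value 0.336 TPM), Ccr6 (0.342 TPM) and Ccr4 (0.0195 TPM) were low in both groups.

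**Figure D5:**
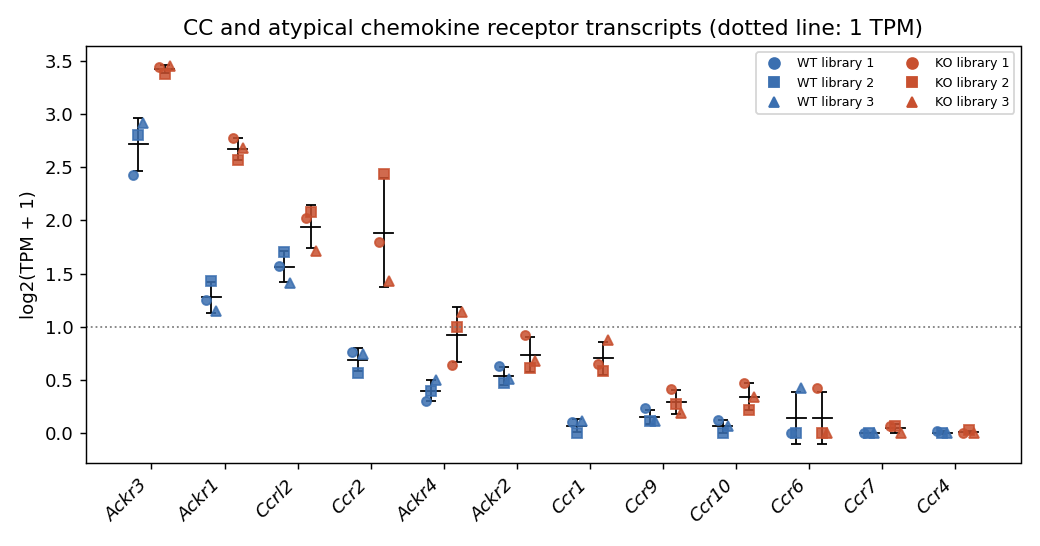
Level of 12 of the receptor genes above 0 in any library, as log2(TPM + 1), in 3 wild-type (blue) and 3 knockout (red) libraries, with mean and SD; the dotted line marks 1 TPM. Ackr3, Ackr1 and Ccr2 lie higher in knockout, and most other receptors stay below 1 TPM in both groups.

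Of 14 further CC chemokine genes, 5 passed the filter, 2 of them (Ccl12 and Ccl24) with a wild-type mean below 1 TPM, and these 2 were called higher. With both libraries left out, 1 of 4 tested was called. Ccl12, which lies between Ccl11 and Ccl8 and encodes another Ccr2 ligand, was at 0.265, 0 and 0 TPM in wild type and at 5.04, 3.21 and 4.14 TPM in knockout, a log2(TPM + 1) difference of 2.23. All genes between Ccl2 and Ccl8 that are named here were thus higher in the knockout libraries, in levels that ran from 2.43 TPM (Ccl7) to 22.7 TPM (Ccl11). Ccl24, a second eotaxin, was at 0.435, 0.802 and 1.07 TPM in wild type and at 1.10, 2.18 and 2.45 TPM in knockout, and lost its call after every rescaling, with no filter, and when wild-type library 1 or knockout library 3 was left out. Ccl27a, a chemokine of skin epithelium, was the most abundant of these 14 genes and was not called, at 16.3, 16.9 and 18.1 TPM in wild type and 17.4, 17.2 and 17.2 TPM in knockout. After quantile normalization and after trimmed-mean rescaling it was called lower. Ccl19, the other ligand of Ccr7, was at 0.314 to 0.487 TPM in wild type and 0.199 to 0.734 TPM in knockout.

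Of 18 listed genes that carry the receptor signal, 8 were too low to be tested. The 10 that passed the filter, 2 of them (Rac2 and Gng2) with a wild-type mean below 1 TPM, were called higher by limma, beside 36.3% of all genes. After trimmed-mean rescaling 8 were called higher, beside 14.2% of all genes, and after quantile normalization 6, beside 12.4%. With both libraries left out 7 of 8 tested were called higher, beside 1673 of 10453 genes. The median log2(TPM + 1) difference over all 18 was 0.54. Rac2, a small GTPase of leukocyte migration, was at 0.264, 0.0971 and 0.215 TPM in wild type and at 5.36, 2.94 and 2.82 TPM in knockout. The other 9 were the G protein genes Gnai2, Gnb1 and Gng2, the arrestins Arrb1 and Arrb2, the receptor kinases Grk2 and Grk6, the Rac activator subunit Elmo1 and the Src-family kinase Lyn, with differences of 0.44 (Grk2) to 1.28 (Arrb1). Gng2 and Grk2 were the 2 not called after trimmed-mean rescaling.

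Of 25 genes of NF-kB and of cytokines that induce chemokines, 15 passed the filter, 2 of them (Tnfrsf1b and Nfkbiz) with a wild-type mean below 1 TPM, and 13 were called higher, beside 36.3% of all genes. After trimmed-mean rescaling 7 were called higher, beside 14.2% of all genes, and after quantile normalization 6, beside 12.4%. With both libraries left out 5 of 13 tested were called higher, beside 1673 of 10453 genes. Csf1, the macrophage growth factor, rose from 2.10, 1.59 and 2.06 TPM to 7.93, 6.64 and 6.48 TPM (limma Benjamini-Hochberg adjusted p = 2.76e-05). Tnfrsf1b, a receptor of TNF, was at 0.788, 0.804 and 0.975 TPM in wild type and at 3.84, 3.33 and 4.41 TPM in knockout. The other 11 were Relb, Nfkbiz, Rela, Ikbkb, Nfkbia, Nfkb2, Myd88, Il1r1, Tlr4, Nfkb1 and Tnfrsf1a, with differences of 0.47 to 0.92. Of the inducing cytokines, Il33 and Il4 passed the filter and were not called. Il33, an alarmin of stromal cells, was at 1.07, 1.43 and 1.64 TPM in wild type and at 1.76, 1.98 and 2.65 TPM in knockout, with no overlap of the groups (limma adjusted p = 0.0621). Il4, a type 2 cytokine, was at 1.21, 1.13 and 1.51 TPM in wild type and at 1.91, 0.788 and 2.26 TPM in knockout, where the groups overlapped. The proinflammatory cytokines Tnf, Il1b, Il6 and Ifng were below 0.5 TPM in all 6 libraries. Tnf was at 0, 0 and 0.0299 TPM in wild type and at 0.0731, 0.0343 and 0.0321 TPM in knockout, and Il1b at 0, 0.347 and 0.405 TPM in wild type and 0.318, 0.0857 and 0 TPM in knockout. Il6 reached 0.313 TPM in knockout library 2 and was listed at 0 in libraries 1 and 3, and Ifng was above 0 in knockout library 1 alone, at 0.114 TPM.

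Markers of cell types that make or answer CC chemokines differed between the groups to unlike extents, and their part in the chemokine differences was not tested. Every knockout library lay above every wild-type library for 18 of 18 monocyte and macrophage markers. The same held for 8 of 8 fibro-adipogenic progenitor, 6 of 8 mast cell, 6 of 7 blood endothelium and 5 of 6 lymphatic endothelium markers. Of markers above 0 in any library, it held for 4 of 7 dendritic cell, 5 of 9 neutrophil and 5 of 12 T and NK cell markers. For B cells it was 1 of 4 and for eosinophils 1 of 3, beside 38.1% of all genes above 0. The markers named for each list have the 3 highest means over the 6 libraries together, and their order within a group can differ. In bulk muscle, a larger number of cells of a type and more RNA per cell cannot be told apart. The 18 monocyte and macrophage markers summed to 43.6 to 51.1 TPM in wild type and 212.6 to 271 TPM in knockout, with none at 0 throughout wild type, and include Lyz2, C1qa and C1qb. All 16 that passed the filter, 5 of them with a wild-type mean below 1 TPM, were called higher, and 11 of 11 tested with both libraries left out. The macrophage sum had a ratio of 5.09 between the groups, and Lyz2 alone had a mean of 76.7 TPM in knockout. Of the 18 macrophage markers 14 were highest in knockout library 3, where only Ccl2 of the CC chemokine genes was. These counts take no account of how far the libraries lay apart, and nothing is read from them.

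The markers of lymphatic endothelium, the textbook source of Ccl21, summed to 8.64 to 11.7 TPM in wild type and 25.0 to 32.6 TPM in knockout. The ratio of 2.72 is one of summed levels, Prox1 included, and is not set against that of a single gene. Lyve1, Prox1 and Pdpn are among the genes of the list. Of its 6 genes 5 were called higher, 1 of them with a wild-type mean below 1 TPM, and 5 of 6 with both libraries left out. Among the 5 was Lyve1, at 1.95, 1.79 and 2.10 TPM in wild type and 9.27, 6.03 and 10.5 TPM in knockout. Prox1, a factor of lymphatic endothelium, was at 4.12, 2.93 and 4.37 TPM in wild type and 4.10, 4.62 and 3.31 TPM in knockout and was not called (limma Benjamini-Hochberg adjusted p = 0.765). Which cells of the bulk muscle carried Lyve1 and Prox1 cannot be told from these values. Fibro-adipogenic progenitor markers, of cells that make Ccl11 and Ccl2 in muscle, include Dcn, Ly6a and Cd34 and summed to 266 to 306 TPM in wild type and 772 to 830 TPM in knockout, with 8 of 8 called higher, 7 after trimmed-mean rescaling and 8 with both libraries left out.

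For the cells that Ccl11 attracts, the 6 eosinophil markers summed to at most 0.0302 TPM in wild type and 0.860 to 1.11 TPM in knockout, led by Prg2 (0.999, 0.860 and 0.843 TPM in knockout), with Il5ra and Siglecf below 0.2 TPM, while Epx, Ear6 and Alox15 were listed at 0 in all 6 libraries. Neutrophil markers summed to 0.771 to 2.71 TPM in wild type and 4.33 to 41.5 TPM in knockout, with S100a9, S100a8 and Retnlg among them and highest in library 1, which also held the highest values of Ccl6, Ccl8 and Ccl9. S100a8 was at 13.2 TPM there and at 1.33 and 2.94 TPM in the other knockout libraries, and Elane was listed at 0 throughout. T and NK cell markers, a source of Ccl5, summed to 0.675 to 1.32 TPM in wild type and 1.98 to 3.47 TPM in knockout, with Gzma, Cd2 and Cd3d among them, and none of 12 passed the filter. Mast cell markers, among them Hdc, Tpsb2 and Mcpt4, summed to 2.68 to 5.36 TPM and 14.7 to 21.3 TPM, with 5 of 5 tested called higher, 4 of them with a wild-type mean below 1 TPM, and 3 of 3 with both libraries left out. Dendritic cell markers, of cells that Ccl21 guides and including Zbtb46, Cd209a and Clec9a, summed to 2.62 to 3.35 TPM and 5.03 to 5.94 TPM, and B cell markers, including Cd79b and Cd79a, to 0.232 to 0.422 TPM and 0.385 to 1.15 TPM. Blood endothelium markers, among them Pecam1, Cdh5 and Tek, summed to 66.8 to 74.7 TPM and 133 to 148 TPM, with 4 of 5 tested called higher, 3 with both libraries left out, and Kdr lower.

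For the 3 most abundant genes, the most similar patterns over the 6 libraries were sought by the root mean square difference of centred log2(TPM + 1), a description that the step between the groups dominates. The search covered the tested genes, without those of provisional name (Gm with a number, or ending in Rik). Ccl21a was closest to H2-Ab1 (0.130), Cd74 (0.159) and H2-Eb1 (0.173), which encode the class II antigen-presenting molecule and its chaperone. H2-Ab1 was at 4.45, 2.43 and 4.57 TPM in wild type and at 29.4, 35.4 and 23.9 TPM in knockout, and like Ccl21a was lowest in library 2 of wild type and highest in library 2 of knockout. Ccl11 was closest to Car3 (0.0840), a carbonic anhydrase of slow muscle and fat, Antxr2 (0.0971) and Socs2 (0.101). Ccl6 was closest to the macrophage lysosomal gene Cd68 (0.140) and to the interferon-induced GTPase genes Ifi47 (0.160) and Iigp1 (0.168). Cd68 was at 1.50, 2.25 and 2.91 TPM in wild type and at 19.1, 10.6 and 21.1 TPM in knockout. Knockout library 2 was the lowest for Cd68 and for Ccl6, while the highest was library 3 for Cd68 and library 1 for Ccl6. The genes named in this paragraph were picked by likeness over these same libraries, so nothing is read from an order of libraries that they share.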

How the data were processed

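Poly(A) RNA was sequenced from muscle of both genotypes. Per the labels' protocols, TRIzol was used for the RNA and a NEBNext Ultra kit for the libraries. The submitters' processing notes name STAR 2.5.3a, kallisto 0.43.0, GRCm38 and mm10, without the step of each. The deposited values were read as TPM because they are fractional and have similar totals per library, and no label or header names the unit. TPM keeps no depth, so no counting interval is given, and a share taken by abundant transcripts moves all other values. The mitochondrial genome took 43.0 to 52.3% of TPM in wild type and 39.0 to 45.7% in knockout.

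Genes missing from a library were set to 0. Of 5730 genes that reached 10 TPM in a library, 10 were at 0 in another, so an exact 0 is given as listed at 0. The test was limma 3.58.1 (R 4.3.3) on log2(TPM + 1) for genes reaching 1 TPM in 3 or more libraries, with an intensity trend, 3 against 3 libraries, 4 residual degrees of freedom and Benjamini-Hochberg adjustment at 0.05 over all genes tested. This scale understates changes of low genes. The test was tried on simulated data. The members, the gene lists and the tests were chosen with earlier results of these data known. Named genes were the 10 members, all receptors, called genes of the related lists, the 3 most abundant genes of each cell type list, Cavin1 and the 3 genes nearest in pattern to each of the 3 most abundant members, provisional Gm and Rik names left out. Some genes of these lists are not reported here. Genes named beyond these were chosen after their values were seen. Alternatives were other scales (quantile, trimmed mean with 30% of ratios and 5% of levels trimmed, nuclear genes alone), filters of none and 10 TPM, pseudocounts of 0.1 and 5, no trend, the replicate number as a block, and each library left out. Leaving out both wild-type library 2 and knockout library 1, and summing all Ccl21 rows, were added after seeing the data. Plots used matplotlib 3.10.9 and tables pandas 2.3.3 and numpy 2.4.6 in Python 3.11.15.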

Additional observations from a re-analysis of the deposited data

How the results depend on the processing

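The differences of the 10 CC chemokine genes were recomputed 104 times over the alternatives. None reversed, 88 moved by less than the spread between libraries or not at all, and 16 by more, all 16 under another pseudocount or scale. Dropping the trend, changing the filter and adding the replicate block cannot change these differences. Another pseudocount or leaving libraries out could not reverse them, because every knockout library lay above every wild-type library. Ccl8 ran from 1.62 with a pseudocount of 5 to 6.19 with 0.1, Ccl21a from 2.24 to 2.99. Of the CC chemokine genes 7 of 7 tested were called. With a filter of 10 TPM 3 were called, where only Ccl6, Ccl11 and Ccl21a were tested. When wild-type library 2 and knockout library 1 were both left out, 4 of 5 tested were called, and Ccl7 and Ccl8 were then no longer tested. Over all genes 4339 were called, 2823 after quantile normalization, 1839 with a filter of 10 TPM, 1886 without both libraries, and 2648 to 4458 with each library left out. The further CC chemokine genes gave 2 calls, 1 with nuclear genes alone, with no filter or without both libraries, 0 with a filter of 10 TPM, and 1 to 2 with each library left out. Receptors gave 3 calls, 7 with no filter and 0 with a filter of 10 TPM. Signalling genes gave 10 calls, 6 after quantile normalization and 3 with a filter of 10 TPM. The NF-kB list gave 13 calls, 7 with trimmed-mean scaling and 6 with quantile normalization, 4 with a filter of 10 TPM, 5 without both libraries, and 7 to 13 with each library left out. The single libraries that moved a count by over 1.5 times were wild-type library 2 (2784 genes called without it), knockout libraries 1 (2648) and 3 (2724) over all genes, wild-type library 1 (8), knockout libraries 1 (8) and 3 (7) for the NF-kB list, and wild-type library 1 and each knockout library (1 call each) for the further CC chemokine genes. A filter of 10 TPM tests fewer genes. The filter stayed at 1 TPM in 3 libraries when libraries were left out. Genes that had passed it through the knockout libraries alone were therefore not tested once a knockout library was dropped. Ccl12 was among them and was called in all 11 alternatives that tested it, so its missing calls there reflect the filter. The cause of the remaining changes was not tested. Replicate numbers did not pair the libraries: deviations of same-numbered libraries correlated at 0.0283, -0.00808 and 0.0369 over 11056 genes. A fit with the replicate number as a block called 4373 genes and 7 of the CC chemokine genes. Depth is unknown, so genes below 1 TPM, such as Ccl3 and Ccl4, have no stated precision.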
